A study of Mus musculus with 12 samples.

Results

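The genes described here are 10 markers and regulators of neural stem cells, namely Prom1, Nes, Sox2, Sox9, Nr2e1, Msi1, Bmi1, Pax6, Lhx2 and Hopx, among 19938 genes measured in the sorted cells of mouse brain tumors. They were chosen by name, all 10 were matched to the array, and each was measured by 1 probe set that carries its symbol and no other. The tumor cells descended from progenitor cells of the subventricular zone, taken from Ink4a/Arf null mice and transduced with human EGFRvIII, a truncated and constitutively active form of the EGF receptor. Both groups shared that deletion and that transgene. The lines came from the same pool of progenitor cells and had been passaged through mice as intracranial tumors before growth as tumorspheres. The pEGFR-Hi line has high and the pEGFR-Lo line low EGFRvIII activation, and both carried the fluorescent protein ZsGreen as a tag. RNA came from ZsGreen-positive cells of 12 FVB mice, 6 with pEGFR-Hi and 6 with pEGFR-Lo tumors, each injected with 2 µl at 200000 cells per µl and each measured on 1 array. The ages of the mice are not given in the sources used here.

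Brains were taken near the median survival of each group, which was shorter for pEGFR-Hi, so line and time in the brain cannot be told apart. Each group came from 1 line, and the p-values therefore measure spread among mice and not among lines. In such pooled cells, fewer cells that use a gene and less of its RNA per cell cannot be told apart. Values are log2 RMA values, on which a step of 1 is a 2-fold difference and every array has nearly the same distribution of values. A difference was called where limma gave a p under 0.01 after Benjamini-Hochberg adjustment and the groups differed at least 2-fold. The level below which 95% of 1015 olfactory receptor genes lay, 4.115, was taken as background. Array medians ran from 4.81 to 4.88, and the lowest correlation between arrays was 0.991 among pEGFR-Hi mice, 0.985 among pEGFR-Lo mice and 0.944 across groups.

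Neural stem cells of the adult subventricular zone are glia-like cells that line the ventricle, and most of them rest until they are activated to divide and yield neuronal and glial progenitors. Some of the 10 genes encode structural or surface proteins of these cells, and most encode regulators that hold them in the undifferentiated state. Prom1 encodes prominin-1 (CD133), a cholesterol-binding glycoprotein of membrane protrusions and the cilium, and Nes encodes nestin, an intermediate filament protein. Sox2 and Sox9 are HMG-box transcription factors, Nr2e1 (Tlx) is an orphan nuclear receptor needed for stem cell maintenance in the adult brain, Pax6 is a paired-box and Lhx2 a LIM-homeobox factor of the forebrain and eye. Msi1 encodes Musashi-1, an RNA-binding protein that represses translation of Numb, Bmi1 encodes a subunit of Polycomb repressive complex 1, and Hopx encodes a small homeodomain protein without DNA binding that marks resting stem cells. Both Prom1 and Nes are used as surface or cytoskeletal markers in glioma as well as in normal brain.

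Promoter windows are shown for Prom1, Nr2e1, Pax6 and Sox2, because these were the genes whose pEGFR-Hi and pEGFR-Lo mice did not overlap. Prom1 and Pax6 had 2 windows each, and the one printed is the one that holds letters marked below. Each window runs from 250 bases before to 50 bases after a RefSeq transcript start on GRCm38.p6 and is printed 5′ to 3′ on the strand of the gene. Capitals mark the letters ACAANG, where N is any base, or TGGGAA, each on either strand. ACAANG is a loose form of a core recognised by SOX proteins, and TGGGAA is a core recognised by the Notch effector RBPJ. The SOX letters and the RBPJ letters did not overlap one another in these windows. The Prom1 window is chr5:44101687-44101986, minus strand, the Nr2e1 window chr10:42583541-42583840, minus strand, the Pax6 window chr2:105682213-105682512, plus strand, and the Sox2 window chr3:34649745-34650044, plus strand.
Prom1: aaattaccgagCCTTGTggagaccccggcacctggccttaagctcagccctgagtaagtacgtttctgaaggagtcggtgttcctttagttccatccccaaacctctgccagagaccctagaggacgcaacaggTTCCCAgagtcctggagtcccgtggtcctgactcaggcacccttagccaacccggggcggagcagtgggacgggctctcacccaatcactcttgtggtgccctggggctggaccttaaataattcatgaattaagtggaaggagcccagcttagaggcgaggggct
Nr2e1: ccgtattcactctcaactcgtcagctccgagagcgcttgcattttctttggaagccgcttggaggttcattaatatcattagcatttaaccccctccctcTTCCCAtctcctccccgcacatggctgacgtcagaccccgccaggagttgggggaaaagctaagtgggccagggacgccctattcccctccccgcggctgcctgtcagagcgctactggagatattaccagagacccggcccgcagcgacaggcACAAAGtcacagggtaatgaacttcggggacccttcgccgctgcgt
Pax6: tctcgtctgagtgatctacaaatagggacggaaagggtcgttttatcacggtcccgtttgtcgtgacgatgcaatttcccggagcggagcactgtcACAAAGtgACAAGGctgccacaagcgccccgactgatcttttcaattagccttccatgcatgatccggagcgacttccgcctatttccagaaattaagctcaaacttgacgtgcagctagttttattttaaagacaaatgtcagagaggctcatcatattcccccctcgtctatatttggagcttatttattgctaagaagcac
Sox2: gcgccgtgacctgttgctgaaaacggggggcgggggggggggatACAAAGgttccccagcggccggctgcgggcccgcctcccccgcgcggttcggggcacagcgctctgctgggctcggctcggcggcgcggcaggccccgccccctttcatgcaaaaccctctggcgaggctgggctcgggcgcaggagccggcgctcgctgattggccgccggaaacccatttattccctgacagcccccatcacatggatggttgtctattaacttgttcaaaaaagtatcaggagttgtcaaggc

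In the Prom1 window the SOX letters lay 239 bases and the RBPJ letters 116 bases before the start. The Nr2e1 window held the SOX letters 4 bases after and the RBPJ letters 150 bases before the start. In the Pax6 window the SOX letters came at 154 and again at 146 bases before the start, and in the Sox2 window at 206 bases before it. Another window of Prom1 and another of Pax6 held neither. Such short letters are common, since 41.2% of the 32851 windows in the table held the SOX letters and 25.6% the RBPJ letters. Among the 10 genes 8 had a window in the table, 6 of them with the SOX letters and 4 with the RBPJ letters in at least 1 window. Because 4 of these 8 had 2 windows, counts per window are the ones to set beside those shares. Of the 12 windows 6 held the SOX letters and 5 the RBPJ letters. Neither TTCNNNGAA, the core of STAT sites, found in 8.3% of all windows, nor GACCACCCA, the core of GLI sites, found in 0.253%, was present in any of the 12 windows of these genes. Of those 12 windows, 11 held more CpG dinucleotides than the median of 7 over all windows, with 10 for Prom1, 19 for Nr2e1, 16 for Pax6 and 27 for Sox2 in the windows printed.

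The neural stem cell genes did not move as a block. Prom1 and Nr2e1 were called higher in pEGFR-Hi, 2 of 10 genes where 3.99% of all genes were, and 0 of 10 were called higher in pEGFR-Lo where 5.06% of all genes were. These shares over all genes also stand beside the calls of every list below. At an unadjusted p under 0.05, 5 of the 10 were higher in pEGFR-Hi and 0 were lower, where 23% of all genes were higher and 19.8% lower, and SAM with 100 permutations also called 2 and 0. The 6 mice of pEGFR-Hi lay wholly above the 6 of pEGFR-Lo for Prom1, Nr2e1, Pax6 and Sox2, 4 of 10 genes against 12.2% of all genes, and for no gene of the 10 wholly below, against 11.1% of all genes. The median difference over the 10 genes was 0.17 on the log2 scale, beside 0.010 over all genes, and the median size of a difference was 0.29 beside 0.18. All 10 had a mean over 12 arrays above background.

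**Figure D1:**
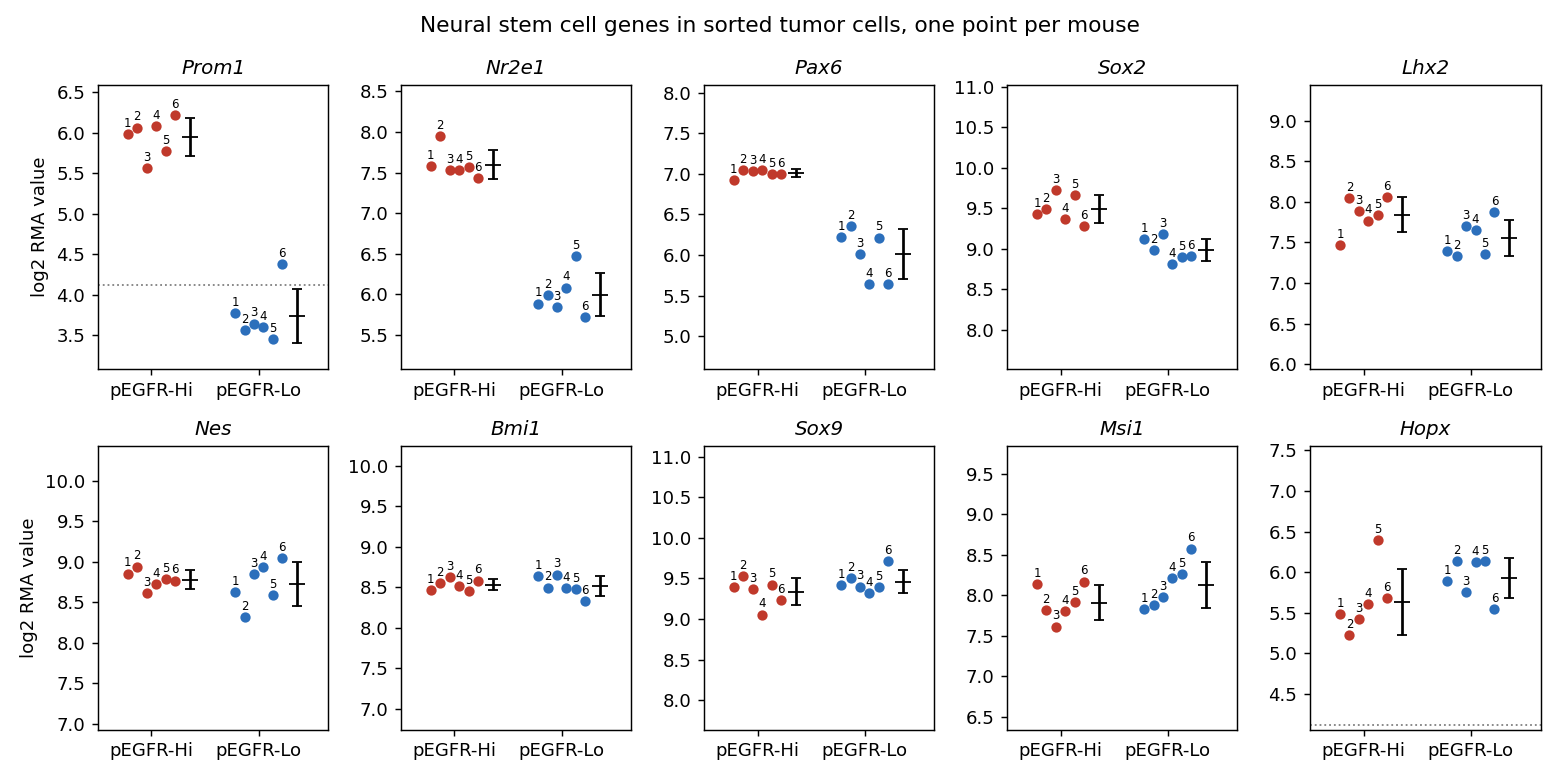
Log2 RMA values (y axis) of the 10 genes in the 6 pEGFR-Hi (red) and 6 pEGFR-Lo mice (blue), 1 numbered point per mouse; every panel spans the same height on the log2 scale around its own middle, the black mark and bar are the mean and SD, and the dotted line, where in range, is background. The red and blue points are apart in the panels of Prom1, Nr2e1, Pax6 and Sox2 and overlap in the other 6.

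Prom1, the CD133 gene, had the largest difference of the 10. Its log2 values in pEGFR-Hi ran from 5.56 over a median of 6.02 to 6.22, and in pEGFR-Lo from 3.46 over 3.62 to 4.38. The groups were apart by 1.18 between the lowest pEGFR-Hi and the highest pEGFR-Lo mouse. All 6 pEGFR-Hi mice were above background and only 1 pEGFR-Lo mouse was, replicate 6 at 4.38, so the fold has a lower bound only. Prom1 RNA in pEGFR-Hi exceeded that in pEGFR-Lo at least 3.45-fold, with means of 5.94 ± 0.24 and 3.74 ± 0.33 (SD, n = 6 each) and an adjusted p of 7.21e-09 in limma. The log2 values as measured differed by 2.21, which rests in part on pEGFR-Lo values below background.

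Prom1 was set beside related genes of the apical membrane and the primary cilium, where prominin-1 resides. Of 20 measured genes of that list 2 were called higher in pEGFR-Hi, where 3.99% of all genes were. They were Prom1 itself and Plekha7, which encodes an adherens junction protein (2.32-fold, adjusted p = 6.39e-07 in limma). Cdh2, the N-cadherin gene, was the 1 called higher in pEGFR-Lo, at 2.68-fold (adjusted p = 2.86e-08), where 5.06% of all genes were. The remaining 17 were not called, and the median difference of the list was 0.078. Prom2, the paralog of Prom1, was below background in both groups at 3.72 and 3.88 (adjusted p = 0.209).

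Nr2e1, the Tlx gene, was the other gene called. In pEGFR-Hi its log2 values ran from 7.43 over a median of 7.55 to 7.95, and in pEGFR-Lo from 5.71 over 5.94 to 6.47. Every pEGFR-Hi mouse was above every pEGFR-Lo mouse, with 0.95 between the nearest ones, and all 12 mice were above background. Nr2e1 RNA was 3.03-fold higher in pEGFR-Hi, a log2 difference of 1.60 with a 95% interval of 1.34 to 1.86 (7.60 ± 0.18 against 5.997 ± 0.27, SD, n = 6 each, adjusted p = 3.16e-08 in limma).

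Tlx represses glial genes and acts with histone deacetylases and the demethylase Lsd1. Of 16 measured cofactors and target genes, 1 was called higher in pEGFR-Hi and 2 higher in pEGFR-Lo, with a median difference of 0.23. The targets called went in both directions, and how Tlx acts on each of them in these cells was not tested. S100b, a calcium-binding protein of astrocytes, was 20.0-fold higher in pEGFR-Lo (adjusted p = 1.37e-09). Wnt7a, a Wnt ligand of neural progenitors, was 2.98-fold higher in pEGFR-Lo (adjusted p = 1.66e-05). Gfap, the filament protein of astrocytes and adult stem cells and a known target of Tlx repression, was 2.69-fold higher in pEGFR-Hi, the same side as Nr2e1 (9.81 ± 0.27 against 8.38 ± 0.59, SD, n = 6 each, adjusted p = 8.61e-05). The cofactors themselves were all under 2-fold and not called, although Bcl11a, named after its value was seen, passed 2-fold under another quantile normalization (1.01) and without pEGFR-Hi replicate 3 (1.10) or 5 (1.09) or pEGFR-Lo replicate 2 (1.03). Gfap and S100b also count as mature astrocyte markers, whose values are given further on.

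Pax6, a regulator of radial glia and of the eye field, was 1.99-fold higher in pEGFR-Hi and so just under the 2-fold limit. Its log2 values in pEGFR-Hi were almost the same in every mouse, from 6.92 over a median of 7.02 to 7.05, while those in pEGFR-Lo ran from 5.64 over 6.11 to 6.36. The groups were apart by 0.56. The log2 difference was 0.99 with a 95% interval of 0.74 to 1.25 (7.01 ± 0.049 against 6.02 ± 0.31, SD, n = 6 each), at an adjusted p of 5.48e-06 in limma. The SD among pEGFR-Lo mice was 6.28 times that among pEGFR-Hi mice. Because the interval spans the limit, the call turned with the setting. Pax6 passed 2-fold when arrays were centred on their medians (1.01), with array weights (1.01), and without pEGFR-Hi replicate 1 (1.01) or pEGFR-Lo replicate 1 (1.03), 2 (1.06) or 5 (1.03). Without pEGFR-Lo replicates 3 and 6 together it was 0.90. Over all 22 other settings the difference stayed between 0.90 and 1.06 with an adjusted p of at most 5.54e-05. Settings that change only the test or the set of genes, such as SAM and removal of dim genes, cannot move the difference itself.

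**Figure D2:**
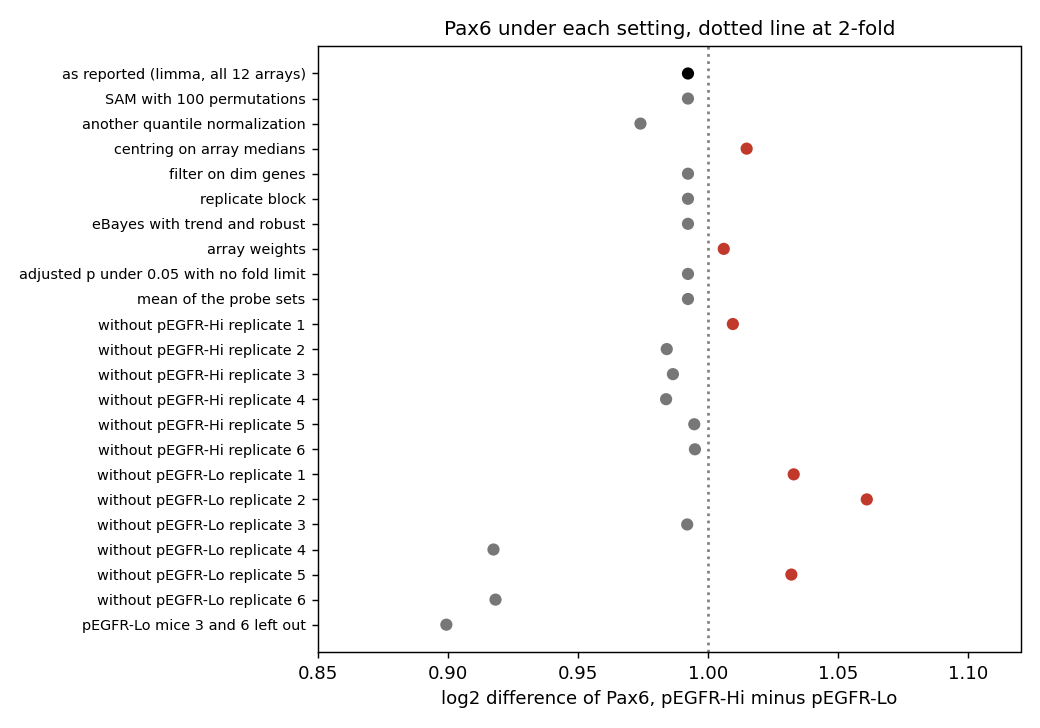
Log2 difference of Pax6, pEGFR-Hi minus pEGFR-Lo (x axis), as reported (black, 0.99) and under each of 22 other settings named on the y axis; red points are at or past 2-fold, marked by the dotted line, and grey points under it. All points lie between 0.90 and 1.06, and 6 of them are past the line.

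The LIM-homeobox gene Lhx2, needed for forebrain and eye formation, did not reach the threshold. Its log2 values ran from 7.46 over a median of 7.86 to 8.05 in pEGFR-Hi and from 7.33 over 7.52 to 7.88 in pEGFR-Lo, so the groups overlapped. The difference of 0.29 had a 95% interval of 0.037 to 0.54 and an adjusted p of 0.0707 in limma (unadjusted 0.0272). A difference of over 1.46-fold lies outside that interval.

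Pax6 and Lhx2 belong to a wider set of forebrain and eye field transcription factors. Of 28 measured genes of this set, 2 were called higher in pEGFR-Hi, 4 were called higher in pEGFR-Lo and 22 were not called, with a median difference of -0.059. The genes higher in pEGFR-Hi were the homeobox factors Meis2 (4.54-fold, adjusted p = 1.23e-09) and Otx1 (3.65-fold, adjusted p = 4.73e-08). Those higher in pEGFR-Lo included Ldb2, a cofactor that binds LIM-homeodomain proteins such as Lhx2, at 34.0-fold (adjusted p = 1.47e-11). The LIM-domain gene Lmo1 was 5.51-fold higher in pEGFR-Lo (adjusted p = 2.20e-08). Dlx2, a homeobox factor of interneuron progenitors, was 2.39-fold higher in pEGFR-Lo (adjusted p = 4.48e-05). Its relative Dlx5 was higher in pEGFR-Lo too, at least 2.58-fold (adjusted p = 0.00285), but was above background in only 3 of 6 pEGFR-Hi mice and was not called without pEGFR-Lo replicates 3 and 6, nor with eBayes trend and robust settings.

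Sox2, the core stem cell factor of the SoxB1 group, was higher in pEGFR-Hi by less than 2-fold. Log2 values ran from 9.28 over a median of 9.46 to 9.73 in pEGFR-Hi and from 8.81 over 8.95 to 9.18 in pEGFR-Lo. No pEGFR-Lo mouse reached the lowest pEGFR-Hi mouse, but the gap between them was only 0.099. The difference was 0.51 with a 95% interval of 0.30 to 0.71, which is 1.42-fold (9.49 ± 0.17 against 8.99 ± 0.14, SD, n = 6 each, adjusted p = 4.50e-04 in limma). A 2-fold difference of Sox2 lies outside that interval.

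Sox9, which acts in gliogenesis and stem cell formation, did not pass the test. It ran from 9.05 over a median of 9.38 to 9.53 in pEGFR-Hi and from 9.32 over 9.41 to 9.72 in pEGFR-Lo, with overlapping groups. The difference was -0.12 with a 95% interval of -0.32 to 0.074 (adjusted p = 0.349 in limma), so that more than 1.25-fold in either direction lies outside the interval.

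The rest of the Sox family was mostly not called either. Of 19 measured Sox genes, Sox2 and Sox9 included, 1 was called higher in pEGFR-Hi, 2 higher in pEGFR-Lo and 16 were not called. Over all genes 3.99% were called higher in pEGFR-Hi and 5.06% higher in pEGFR-Lo. The median difference of the Sox genes was 0.018. Sox18, known from blood vessel development, was 2.71-fold higher in pEGFR-Hi, with values of 6.51 ± 0.40 and 5.07 ± 0.50 (SD, n = 6 each, adjusted p = 6.71e-05). The other SoxF genes Sox17 and Sox7, named here after their values were seen, differed by -0.049 and 0.12 (adjusted p = 0.745 and 0.427). Of 10 endothelial markers 3 were above background, 0 were called in either direction by limma or by SAM, and 1 was higher and 1 lower at an unadjusted p under 0.05. Pecam1 (3.75 and 3.78) and Cdh5 (3.73 and 3.76) were below background in both groups, and the part of endothelial RNA in the Sox18 values was not tested. The SoxD genes went both ways. Sox6 was 2.55-fold higher in pEGFR-Lo (adjusted p = 4.82e-08). Sox5 was 2.01-fold higher there (adjusted p = 1.36e-05), a margin so thin that it was not called when arrays were centred on their medians (-0.98), with array weights (-0.99), without pEGFR-Lo replicates 3 and 6 (-0.95), or without any single one of pEGFR-Hi replicates 1, 5 and 6 and pEGFR-Lo replicates 1, 2 and 3 (-0.94 to -0.99). Sox13, named after its value was seen, was 1.95-fold higher in pEGFR-Hi with groups that did not overlap (adjusted p = 2.31e-07), and passed 2-fold without pEGFR-Hi replicate 3 (1.02). Sox1 and Sox3, the other SoxB1 genes, differed by 0.050 and -0.16 (adjusted p = 0.711 and 0.187). The SoxE genes Sox8 and Sox10, relatives of Sox9 that act in the oligodendrocyte lineage, differed by -0.57 (1.49-fold, adjusted p = 2.14e-05) and -0.37 (adjusted p = 0.0138) and were not called.

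**Figure D3:**
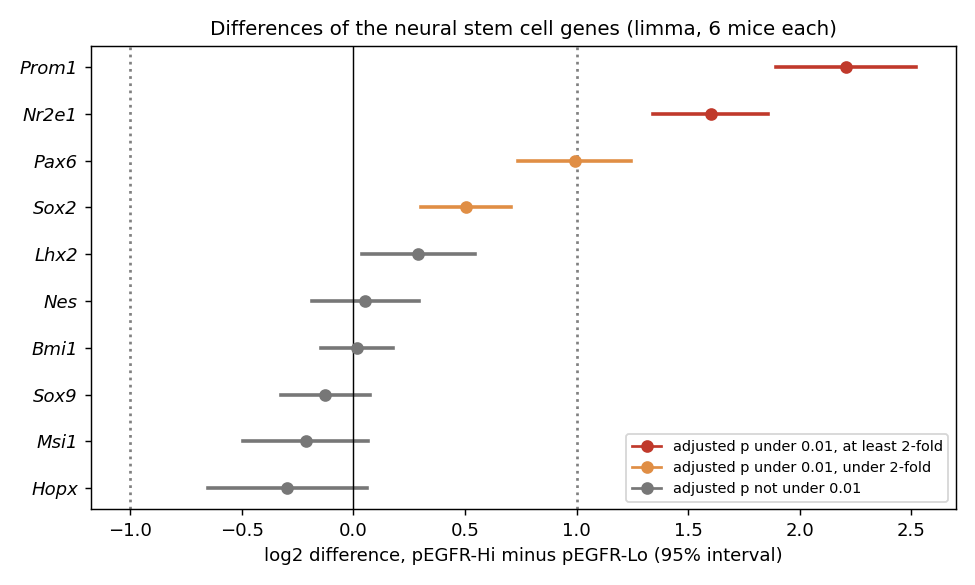
Log2 difference, pEGFR-Hi minus pEGFR-Lo (x axis), of the 10 genes, ordered by size on the y axis, with 95% intervals from limma over 6 mice per group; dotted lines mark 2-fold in either direction. Prom1 (2.21, with pEGFR-Lo values mostly below background) and Nr2e1 (1.60) lie past 2-fold, Pax6 (0.99) sits on the line, Sox2 (0.51) lies between 0 and the line, and the intervals of Nes, Bmi1, Sox9, Msi1 and Hopx include 0.

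Nestin, the filament protein most used to mark neural progenitors, differed between the groups by less than its error. Nes ran from 8.61 over a median of 8.78 to 8.94 in pEGFR-Hi and from 8.32 over 8.74 to 9.04 in pEGFR-Lo, the second range enclosing the first. The difference was 0.055 with a 95% interval of -0.18 to 0.29 (adjusted p = 0.769 in limma), which leaves a difference of over 1.23-fold outside. Vim, the vimentin gene whose product assembles with nestin, was named after its value was seen and differed by -0.093 (adjusted p = 0.473). Of 14 measured intermediate filament genes, Nes included, 2 were called higher in pEGFR-Hi and 1 higher in pEGFR-Lo, with a median difference of -0.090. Gfap, given above, and Lmnb1, the gene of the nuclear lamina protein lamin B1, were the pair higher in pEGFR-Hi, Lmnb1 at 2.16-fold (adjusted p = 1.75e-07). Ina, the neuronal filament protein internexin, was 4.91-fold higher in pEGFR-Lo (adjusted p = 2.21e-09).

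Musashi-1 RNA did not pass the test either. Msi1 ran from 7.61 over a median of 7.87 to 8.17 in pEGFR-Hi and from 7.83 over 8.10 to 8.58 in pEGFR-Lo, with overlapping groups, a difference of -0.21 and a 95% interval of -0.49 to 0.066 (adjusted p = 0.242 in limma). A difference of over 1.41-fold lies outside that interval. Its paralog Msi2 was lower in pEGFR-Hi by 1.64-fold (log2 difference -0.72, adjusted p = 3.59e-05), under the 2-fold limit. At an unadjusted p under 0.05 in limma, 2 of 15 measured genes for Musashi, Elavl, Numb and related RNA-binding proteins were higher in pEGFR-Hi. On the same measure 7 were lower, where 23% of all genes were higher and 19.8% lower. By limma or by SAM, 0 were called higher in pEGFR-Hi and 2 were called higher in pEGFR-Lo. These were the neuronal RNA-binding proteins Elavl4 (2.89-fold, adjusted p = 3.03e-06) and Elavl3 (3.71-fold, adjusted p = 8.05e-06), and the median difference of the list was -0.21.

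Bmi1 had the smallest difference of the 10. Its log2 values ran from 8.45 over a median of 8.53 to 8.63 in pEGFR-Hi and from 8.33 over 8.49 to 8.66 in pEGFR-Lo. The difference was 0.017 with a 95% interval of -0.14 to 0.18 (adjusted p = 0.902 in limma), and over 1.13-fold in either direction lies outside the interval. The sign turned without pEGFR-Hi replicate 3 (-0.0026) or pEGFR-Lo replicate 6 (-0.020).

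Other Polycomb genes were called in both directions. Of 29 measured subunits, Bmi1 included, 1 was called in each direction. Over all genes 3.99% were called higher in pEGFR-Hi and 5.06% higher in pEGFR-Lo. Of the subunits 23 had a positive difference, as did 51.8% of all genes, and their median was 0.23. With the adjusted p under 0.01 alone, whatever the fold, 12 were higher in pEGFR-Hi and 2 higher in pEGFR-Lo, where 14.7% and 12.9% of all genes were. Pcgf5, a variant partner that takes the place of Bmi1 in some complexes, was 2.27-fold higher in pEGFR-Hi (adjusted p = 9.41e-06), while Pcgf2, the nearest paralog of Bmi1, differed by -0.011 (adjusted p = 0.957). Jarid2, an accessory subunit of Polycomb repressive complex 2, was 2.10-fold higher in pEGFR-Lo (adjusted p = 3.86e-07). The core subunits of complex 2, named after their values were seen, differed by 0.93 for Suz12 (adjusted p = 3.76e-05), 0.80 for Eed (adjusted p = 1.19e-06) and 0.65 for the methyltransferase Ezh2 (adjusted p = 3.00e-05). Suz12 passed 2-fold without pEGFR-Lo replicate 3 (1.01). The ubiquitin ligase subunits of complex 1, Ring1 and Rnf2, chosen in the same way, differed by 0.062 and -0.026. Cell cycle inhibitors that Polycomb complexes repress were not called in either direction, 0 of 6 by limma and by SAM, with 3 higher and 1 lower in pEGFR-Hi at an unadjusted p under 0.05. One of them, Cdkn2a, the Ink4a/Arf gene deleted in the parental mice, was listed at 5.26 ± 0.13 and 5.36 ± 0.14 (SD, n = 6 each). Whether its probes lie inside the deleted part was not tested, so this value checks nothing about the deletion.

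Hopx varied most among pEGFR-Hi mice. It ran from 5.23 over a median of 5.55 to 6.39 in pEGFR-Hi, with replicate 5 at the top, and from 5.54 over 6.005 to 6.14 in pEGFR-Lo. The groups overlapped, and the difference of -0.30 had a 95% interval of -0.65 to 0.061 (adjusted p = 0.200 in limma), so over 1.57-fold in either direction lies outside the interval. Without pEGFR-Hi replicate 5 the difference was -0.45 with an adjusted p of 0.0103, still not called. Of 17 measured Hopx partners and BMP effectors, 1 was called in each direction and the median difference was 0.063. Both were inhibitors of basic helix-loop-helix factors, Id2, with 5.10-fold more RNA in pEGFR-Lo (adjusted p = 2.38e-06), and Id1, with 2.03-fold more in pEGFR-Hi (adjusted p = 3.59e-05). The call of Id1 was lost without any single one of pEGFR-Hi replicates 2, 3 and 5 and pEGFR-Lo replicates 1 and 4 (0.96 to 0.99). Id4, which keeps hippocampal stem cells at rest, differed by -0.60 (adjusted p = 0.0203) and was not called.

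Genes of resting stem cells, a list that holds Hopx and Sox9, were called on 1 side. Of 25 measured, 5 were higher and 7 lower in pEGFR-Hi at an unadjusted p under 0.05 in limma, where 23% and 19.8% of all genes were. By limma or by SAM, 0 were called higher in pEGFR-Hi and 5 were called higher in pEGFR-Lo, against 3.99% and 5.06% of all genes in limma. One of the 5, the gap junction gene Gja1, named after its value was seen, lost its call without pEGFR-Lo replicates 3 and 6, with trend and robust settings in eBayes, and without any single one of pEGFR-Hi replicates 2, 3, 4 and 5 and pEGFR-Lo replicates 1, 2, 3 and 6, which left 4. The median difference was 0.0067. Cpe, which encodes a peptide-processing enzyme, was 10.6-fold higher in pEGFR-Lo (adjusted p = 9.90e-13). The glutamate transporter gene Slc1a2 was 6.51-fold higher there (adjusted p = 9.49e-12). Id2, given above, and Clu, the gene of the secreted chaperone clusterin (2.56-fold, adjusted p = 4.72e-05), followed. Cpe, Slc1a2 and Clu are also genes of mature astrocytes.

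Genes of activated stem cells and transit amplifying cells went both ways. Of 17 measured, 5 were called higher in pEGFR-Hi and 5 higher in pEGFR-Lo (4 without pEGFR-Lo replicates 3 and 6). Over all genes the shares were 3.99% and 5.06%, and the median difference of the list was 0.0041. Those higher in pEGFR-Hi included the replication clamp gene Pcna (2.14-fold, adjusted p = 7.76e-09) and the topoisomerase gene Top2a (2.80-fold, adjusted p = 4.14e-08). The G1 cyclins were on the other side, with Ccnd2 7.28-fold (adjusted p = 3.36e-10) and Ccnd1 4.56-fold (adjusted p = 1.27e-08) higher in pEGFR-Lo. Mycn, a growth regulator of progenitors, was 2.38-fold higher in pEGFR-Lo (adjusted p = 3.14e-06), as was Dlx2, given above.

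Among 50 other measured neural stem cell and radial glia genes, 9 were called higher in pEGFR-Hi and 8 higher in pEGFR-Lo (10 and 7 without pEGFR-Lo replicates 3 and 6). Over all genes the shares were 3.99% and 5.06%, and the median difference of the list was -0.054. The Hedgehog effector Gli3 was higher in pEGFR-Hi at least 28.0-fold, with 8.96 against 3.85, which is below background (adjusted p = 9.29e-13). Its relative Gli2 was 3.17-fold higher (adjusted p = 3.02e-08). Tead2, a DNA-binding partner of Yap, was 3.66-fold higher in pEGFR-Hi (adjusted p = 9.36e-08). The receptor gene Notch2 was 2.30-fold higher in pEGFR-Hi (adjusted p = 3.88e-07). On the other side Slc1a3, the radial glia transporter GLAST, was 13.6-fold higher in pEGFR-Lo (adjusted p = 1.33e-12), beside Slc1a2.

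**Figure D4:**
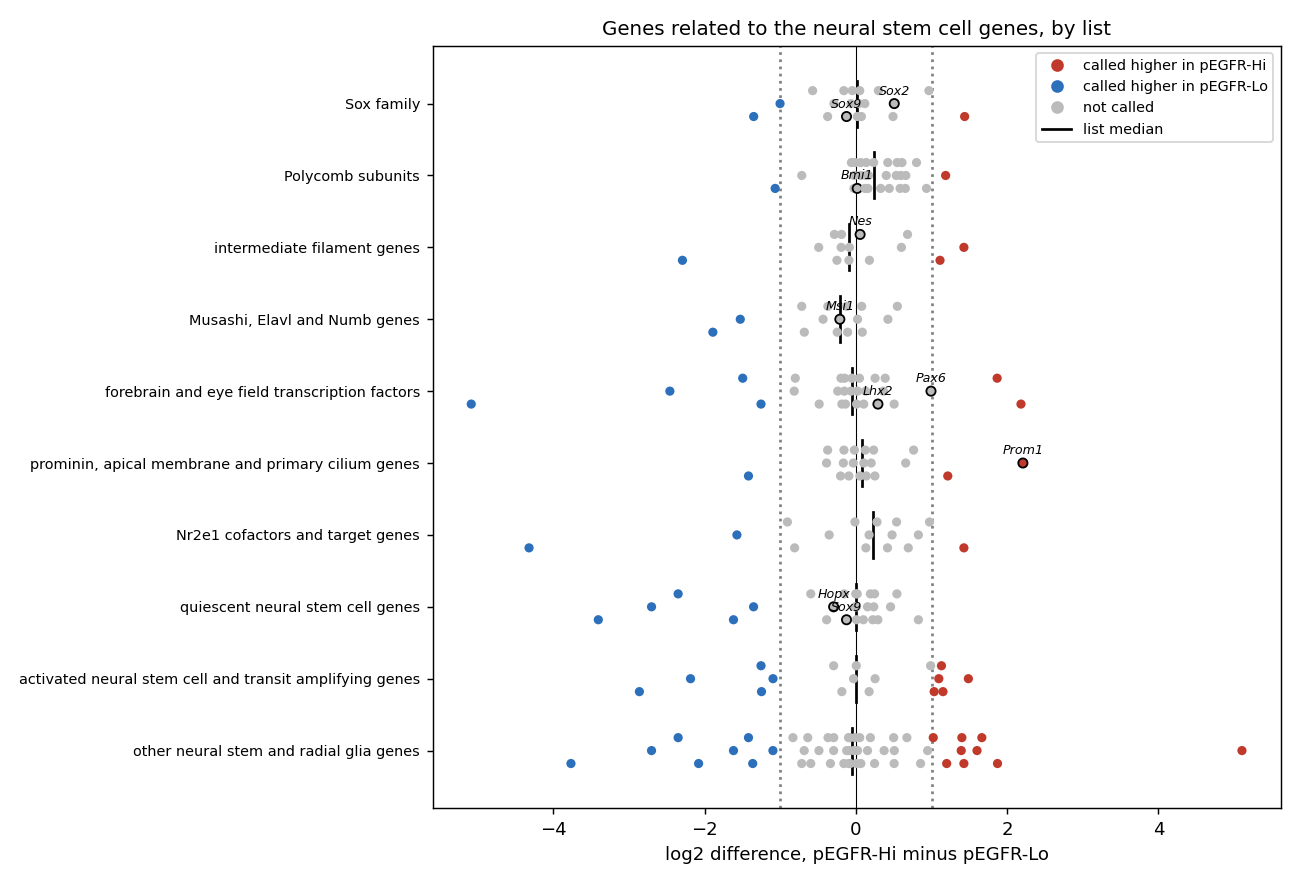
Log2 difference, pEGFR-Hi minus pEGFR-Lo (x axis), of each measured gene of 10 related lists (y axis); red points were called higher in pEGFR-Hi, blue points were called higher in pEGFR-Lo, grey points were not called, black rings mark genes of the 10 described here, the black tick is the list median and dotted lines mark 2-fold. Called points lie on both sides in most lists, with the Polycomb median at 0.23 and the medians of the resting and activated stem cell lists near 0.

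Markers of other brain cells were set beside these values. Mature astrocyte markers had a mean log2 level over 8 genes of 5.80 to 6.23 in pEGFR-Hi and 6.69 to 7.01 in pEGFR-Lo, with Gfap called higher in pEGFR-Hi and S100b, Slc1a2 and Slc7a10 in pEGFR-Lo. Slc7a10 was not called without pEGFR-Hi replicate 1 or without pEGFR-Lo replicates 3 and 6. The part of these astrocyte genes in the values of Prom1, Nr2e1, Pax6 and Sox2 was not tested. Microglia and macrophage markers, 11 measured, ranged from 4.11 to 4.38 and from 4.16 to 4.55, with Cd68 called higher in pEGFR-Hi and P2ry12 in pEGFR-Lo. Ependymal markers, of interest because prominin-1 is also made by ependymal cells, ranged from 3.87 to 3.99 in pEGFR-Hi and from 4.01 to 4.11 in pEGFR-Lo, all below background, with 5 of 10 genes above background, 0 called by limma or by SAM and 1 higher and 4 lower in pEGFR-Hi at an unadjusted p under 0.05. Their median difference was -0.15, and 0.11 with dim genes left out, and their part in the Prom1 values was not tested. Mia, of that list, was called higher in pEGFR-Lo with array weights (-1.03) and without any single one of pEGFR-Hi replicates 3, 4 and 5 and pEGFR-Lo replicates 4 and 5 (-1.03 to -1.08). The ciliated cell factor Foxj1 was at 5.12 and 5.39 (adjusted p = 0.0607). Endothelial levels were 3.48 to 3.83 and 3.58 to 3.86, mature neuron levels 4.33 to 4.42 and 4.33 to 4.57, and lymphocyte and erythrocyte levels 3.88 to 4.11 and 3.77 to 4.01, with 0 genes called in each by limma and SAM. At an unadjusted p under 0.05 these lists had 1, 1 and 1 genes higher and 1, 4 and 0 lower in pEGFR-Hi. Emcn, an endothelial marker, passed the limits toward pEGFR-Lo without pEGFR-Lo replicate 4 (-1.01) or 5 (-1.02), and Nrgn, a neuronal marker, toward pEGFR-Hi without pEGFR-Lo replicates 3 and 6 (1.05). Pericyte and fibroblast levels were 4.09 to 4.60 and 4.37 to 4.89 with Rgs5 called higher in pEGFR-Lo, and mature oligodendrocyte levels 3.78 to 3.85 and 4.17 to 4.36 with Ermn called higher in pEGFR-Lo. The called markers Slc7a10, Cd68, P2ry12, Rgs5 and Ermn, and the markers Foxj1, Pecam1, Cdh5, Emcn, Nrgn and Mia, were named after their values were seen.

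For the called genes, the most similar profiles over the 12 arrays were found by the root mean square difference after each gene was centred on its own mean, among 13486 other genes above background. Nearest to Prom1 were Trip6 (0.199 on the log2 scale), Uhrf1 (0.247) and Esx1 (0.269). They were 3.95-fold, 3.76-fold and 4.74-fold higher in pEGFR-Hi. Nearest to Nr2e1 were Rel (0.159), Esyt1 (0.169) and Dna2 (0.171), which were 2.97-fold, 2.95-fold and 3.21-fold higher. All 6 were called in limma, with adjusted p values from 3.26e-09 for Trip6 to 2.27e-07 for Rel. The difference between the groups is part of the profile by which they were picked.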

How the data were processed

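RNA of ZsGreen-positive tumor cells was measured on 12 Affymetrix Mouse Gene 1.0 ST arrays, 6 per tumor line, after papain dissociation, a Percoll gradient, DAPI exclusion of dead cells and cell sorting. The cerebellum and olfactory bulbs had been removed. The authors deposited log2 values made by RMA in Affymetrix Expression Console (version not given in the sources used here), which corrects background, equalizes the distribution of values across arrays and summarizes the probes of a probe set. A change in total RNA per cell therefore cannot be seen. The deposited values had 0 gaps and 0 pairs of identical arrays. Groups and replicate numbers came from the sample labels.

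Of 35556 probe sets, 21789 carried 1 gene symbol, 1621 several and 12146 none, and the first kind alone was named. Symbols of 21698 were matched by Entrez ID to RefSeq (GRCm38.p6). The probe set with the highest mean was used for 999 genes with several, leaving 19938 genes, 13487 of them above background. The array annotation came without a named genome build, and coordinates are printed only for RefSeq promoter windows of GRCm38.p6.

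Groups were fitted over all genes in R 4.3.3 by lmFit and eBayes of limma 3.58.1, with p adjusted over all genes; tables were read with data.table, version 1.17.8, and pandas 2.3.3, numpy 2.4.6 and matplotlib 3.10.9 in Python 3.11.15 made the summaries and plots. The study's methods used SAM at the same limits, run here as an alternative, and DAVID, not used here. If the mean of the dimmer group fell short of background, each of its arrays below background was set to background and the fold is given as at least that. The genes and lists were chosen with earlier results of these data known, so lists are described by counts and medians without tests. Named genes are the 10 themselves, paralogs (Sox1, Sox3, Sox8, Sox10, Msi2, Prom2, Pcgf2, Id4), from every list up to 4 called genes in the direction with more calls and up to 2 in the other, by smallest adjusted p, and the 3 nearest profiles of each called gene; further names are marked in the text. Some list genes were not analysed here. Both the limma and the SAM steps were tested on simulated data. Beside SAM, the alternatives were array weights, a block for the replicate number, trend and robust settings in eBayes, a second quantile normalization, medians of all arrays set equal, removal of dim genes, probe sets averaged per gene, a limit of 0.05 on the adjusted p whatever the fold, and leaving out each array. Leaving out pEGFR-Lo replicates 3 and 6 together was chosen after the data were seen. The number of arrays limits the precision.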

Additional observations from a re-analysis of the deposited data

Results flagged for a closer look

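Within groups of 6 mice, the highest and lowest value of each of the 10 genes was set against the others by Dixon's criterion. Of 20 groups checked, 2 held a mouse that stood apart, where chance gives about 1 in 20. Prom1 in pEGFR-Lo replicate 6 was at 4.38 on the log2 scale with the nearest other mouse at 3.78, a gap of 0.653 of the group's range, and it was the only pEGFR-Lo value above background. Nr2e1 in pEGFR-Hi replicate 2 was at 7.95 with the nearest other mouse at 7.58, a gap of 0.700 of the range. The differences were 2.21 for Prom1 and 1.60 for Nr2e1 with all mice, and both genes were called under every setting that left out 1 mouse, including these.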

How the results depend on the processing

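Prom1 and Nr2e1 were called higher in pEGFR-Hi under all 22 other settings, and 0 of the 10 genes were called higher in pEGFR-Lo under any of them. Differences were 2.15 to 2.35 for Prom1 (adjusted p of 6.98e-10 to 7.86e-08 in limma) and 1.49 to 1.70 for Nr2e1 (5.92e-09 to 1.03e-06 in limma). Settings that change only the test or the set of genes left these differences as they were. Averaging probe sets could not move them either, since each of the 10 genes has 1 probe set. The limit of 0.05 whatever the fold is looser than the main limits and could not lose a call. The count higher in pEGFR-Hi was 2 to 3 when single arrays were left out and 4 at an adjusted p under 0.05 whatever the fold, where Sox2 (0.51) and Pax6 (0.99) joined; that setting also moved the counts over all genes from 795 to 3871 higher in pEGFR-Hi and from 1009 to 3314 higher in pEGFR-Lo, since it drops the fold limit. Leaving out single arrays gave 774 to 846 and 991 to 1031. Pax6 passed 2-fold with centring (1.01), array weights (1.01) and without pEGFR-Hi replicate 1 (1.01) or pEGFR-Lo replicate 1 (1.03), 2 (1.06) or 5 (1.03). The sign of Bmi1 turned without pEGFR-Hi replicate 3 (-0.0026) and pEGFR-Lo replicate 6 (-0.020), and that of Nes without pEGFR-Lo replicate 2 (-0.027), all within their error; over single arrays left out Bmi1 ranged from -0.020 to 0.045, Nes from -0.027 to 0.12, and Hopx from -0.45 to -0.21. Without pEGFR-Lo replicates 3 and 6 the differences were 2.35, 1.49, 0.90 and 0.54 for Prom1, Nr2e1, Pax6 and Sox2. Scaling moved the median difference of all genes from 0.010 to at most 0.033. With the replicate number as a block the counts were 2 and 0 of the 10 genes and 801 and 1008 of all genes, with no call of the 10 changed. Same-numbered mice correlated at -0.14 to 0.097 in their deviations over all genes, which showed no sign of pairing. Such a correlation cannot show a pairing that touches few genes, and the labels do not say whether mice were paired. Signal near background limits Prom1 in pEGFR-Lo to a bound.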
